A study of Mus musculus with 12 samples.

Results

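The CD28 family holds receptors on the T cell surface that adjust the response to antigen. Cd28, Icos, Ctla4, Pdcd1 (which encodes PD-1) and Btla were sought by symbol among the 11022 genes of the FPKM table, and 4 of these 5 were found. Btla has no row and was not analysed here. Messenger RNA had been sequenced from cytotoxic T lymphocytes (CTL), which are effector CD8 T cells, grown from spleens or lymph nodes of adult female P14 mice. According to the methods, 3 mice gave 3 biological replicates. P14 cells all carry 1 transgenic T cell receptor (TCR), which recognises the viral peptide gp33-41. They were activated with the peptide, interleukin 2 and interleukin 12. They were then expanded in interleukin 2, which was present at 20 ng/mL in every group. DMSO was the vehicle control. The 12 samples fell into 4 groups of 3: unstimulated CTL, CTL retriggered with 100 ng/mL peptide for 4 h (TCR), the same with 10 µM IC87114, an inhibitor of the phosphoinositide 3-kinase p110δ (TCR+PI3Kdi), and the same with 2 µM PD184252, an inhibitor of the kinases MEK1/2 that activate ERK1/2 (TCR+MEKi). The inhibitor was a single compound at a single dose in each case, and no group received an inhibitor without peptide.

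CD28, ICOS, CTLA-4 and PD-1 bind ligands of the B7 family on antigen presenting cells or on other T cells. CD28 and ICOS are costimulatory: on ligand binding, their cytoplasmic tails recruit PI3K and adaptor proteins and add to the signal of the TCR. CTLA-4 binds the same ligands as CD28, CD80 and CD86, with higher affinity, and restrains the response. PD-1 binds PD-L1 and PD-L2 and recruits phosphatases to a pair of tyrosine motifs in its tail. Activated CD8 T cells are known to raise CTLA-4 and PD-1, and PD-1 stays high when antigen persists.

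The cytoplasmic tails, through which the members signal, differ between them, so the coding stretch around each tail motif is shown, read from the GENCODE M21 transcripts (GRCm38, the same build as mm10). In the first 3, capitals mark the codons of the tyrosine motif that binds the p85 subunit of PI3K, and in the last 2 they mark the inhibitory (ITIM) and the switch (ITSM) tyrosine motif of PD-1.
Cd28, codons 189 to 192 of 218, exon 4, chr1:60769681-60769716, plus strand: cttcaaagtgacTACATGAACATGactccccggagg
Icos, codons 181 to 184 of 200, exon 4, chr1:60995548-60995583, plus strand: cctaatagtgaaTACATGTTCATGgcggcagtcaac
Ctla4, codons 201 to 204 of 223, exon 4, chr1:60914634-60914669, plus strand: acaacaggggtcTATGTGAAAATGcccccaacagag
Pdcd1 ITIM, codons 223 to 228 of 288, exon 5, chr1:94039476-94039517, minus strand: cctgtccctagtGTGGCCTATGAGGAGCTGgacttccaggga
Pdcd1 ITSM, codons 246 to 251 of 288, exon 5, chr1:94039407-94039448, minus strand: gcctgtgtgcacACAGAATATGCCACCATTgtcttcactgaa
All 4 genes lie on chromosome 1. Cd28 (Entrez gene 12487, 60716800 to 60773359), Ctla4 (Entrez gene 12477, 60887000 to 60915832) and Icos (Entrez gene 54167, 60977927 to 61000320) follow each other on the plus strand, with no other gene of the table between them. Pdcd1 (Entrez gene 18566, 94038305 to 94052553) lies far from them on the minus strand. These are GENCODE gene spans. The RefSeq starts, used below for promoters and distances, differ: 60746388 for Cd28, 60909025 for Ctla4 and 60960773 for Icos. No exon of another annotated gene overlaps an exon of any of the 4, and 0.0% of the 100-base stretches of their transcripts occur in transcripts of another gene.

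The samples carried the markers of the labelled cell type. Cd3e, Cd8a, Cd8b1, Gzmb and Prf1 summed to between 9510 and 10700 FPKM in unstimulated CTL and to between 14100 and 15900 FPKM in the 9 stimulated samples. Most of each sum was Gzmb, with a mean ± SD of 8740 ± 632 FPKM in unstimulated CTL and 13000 ± 504 with TCR. In the same groups Cd3e was at 125 ± 5.69 and 111 ± 4.1 FPKM. Cd8a was at 221 ± 8.01 and 360 ± 6.73 FPKM, and Cd8b1 at 245 ± 13.5 and 351 ± 15.2 FPKM. Of the markers of other cells, the B cell genes Ms4a1, Cd79a and Cd79b, the myeloid genes Csf1r, Lyz2, Cd14 and Adgre1, the regulatory T cell gene Foxp3 and the NK cell gene Ncr1 have no row, and Itgax lay between 0.29 and 0.75 FPKM. The NK cell gene Klrb1c fell from between 4.58 and 6.23 FPKM in unstimulated CTL to between 1.31 and 2.43 FPKM in the stimulated samples, and the CD4 T cell genes Cd4 and Zbtb7b together summed to between 5.27 and 11.2 FPKM in all 12. Effective depth, inferred from the spacing of the smallest FPKM values, was 7860000 to 13250000 reads per sample, which put roughly 342 to 8082 reads on each receptor gene in each sample. Measurements were made on bulk RNA, in which fewer cells with a receptor and less RNA per cell cannot be told apart.

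FPKM is a read count divided by exon length and library size, so the receptors can be compared with each other within a group, and means are given ± SD over 3 samples. In unstimulated CTL Icos mRNA was the most abundant at 50.5 ± 5.53 FPKM, followed by Ctla4 at 28.9 ± 7.33, Cd28 at 25.2 ± 1.44 and Pdcd1 at 18.2 ± 5.04. The samples of Ctla4 overlapped those of Cd28 and of Pdcd1, Icos stood clear of its neighbour, and Cd28 and Pdcd1 were separate by a small margin (lowest 23.51 against highest 23.44 FPKM). After TCR retriggering the order was Pdcd1 (210 ± 14.6 FPKM), Ctla4 (184 ± 28.8), Cd28 (55.9 ± 3.57) and Icos (48.8 ± 2.72), where Pdcd1 and Ctla4 overlapped. With PI3Kdi Ctla4 came first (349 ± 60.4 FPKM), then Pdcd1 (191 ± 11.4), Cd28 (111 ± 1.56) and Icos (93.3 ± 6.88). With MEKi Ctla4 came first again (253 ± 43.3 FPKM), then Pdcd1 (205 ± 7.11), Icos (86.4 ± 14.2) and Cd28 (47.4 ± 4.31). In both inhibitor groups the samples of each receptor were separate from those of its neighbours in the order. Both inhibitory receptors thus exceeded both costimulatory receptors in every stimulated sample.

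**Figure D1:**
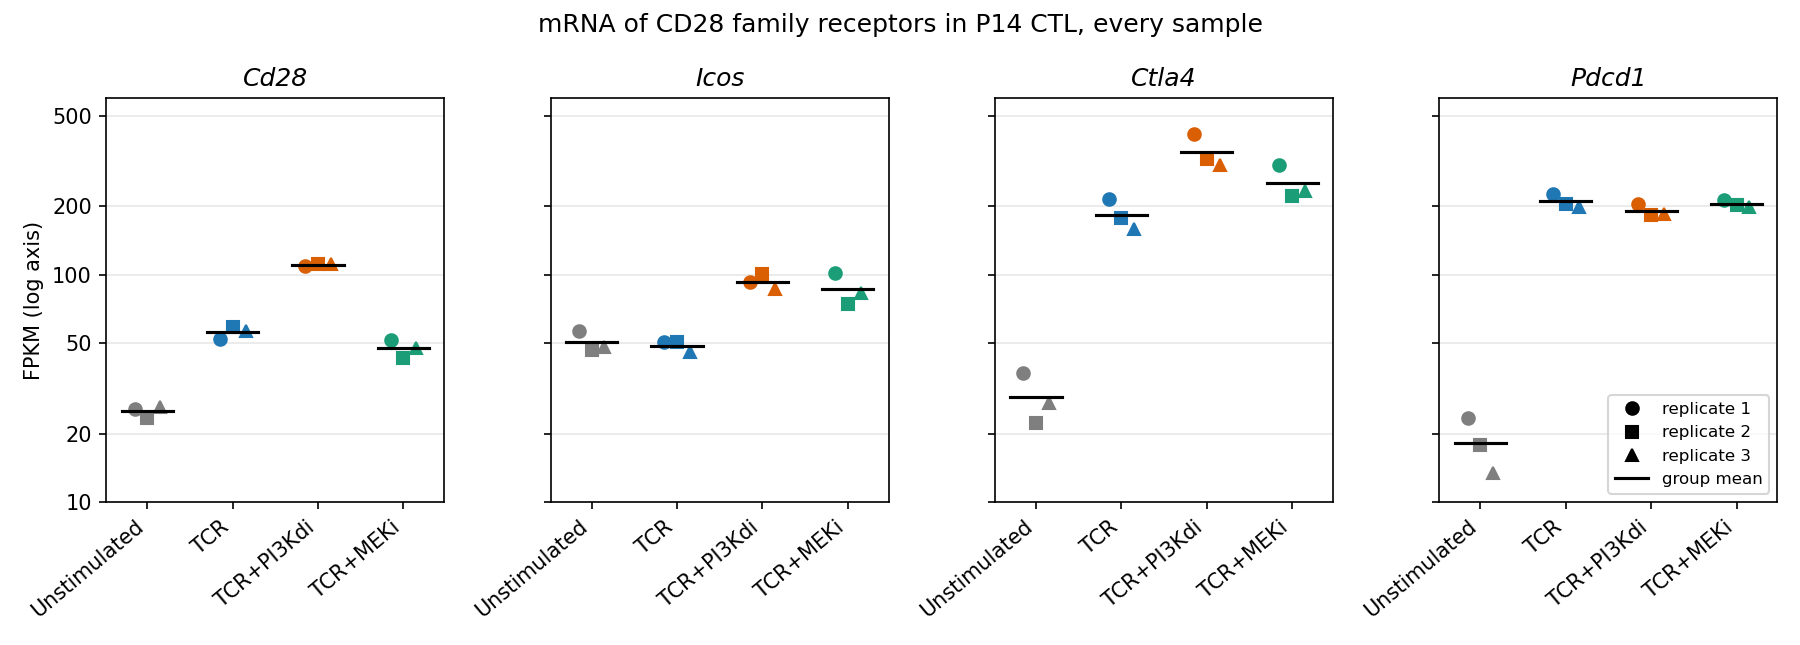
FPKM (log axis) of the 4 receptor genes in each of the 12 samples, by group; symbols mark replicate number and lines mark group means. Pdcd1 forms a plateau at 183 to 227 FPKM across the stimulated groups, whereas Cd28 and Ctla4 have their highest mean with PI3Kdi and Icos is higher in both inhibitor groups, whose samples overlap.

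The first comparison asked which receptor mRNAs change when CTL meet antigen again. TCR retriggering raised Pdcd1, Ctla4 and Cd28 and left Icos without a detectable change. A gene was called when its adjusted p from limma on log2(FPKM + 0.1) was under 0.05 and its change exceeded 2-fold, and 3 of 4 members were called higher, where 8.87% of all 11022 genes were. At an adjusted p under 0.05 alone the same count of 3 members compares with 33.6% of all genes.

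Pdcd1 was at 23.4, 17.9 and 13.4 FPKM in unstimulated replicates 1, 2 and 3, and at 227, 205 and 199 FPKM after retriggering. The groups were far apart, and the rise was 11.5-fold between group means (log2 fold change 3.56, SE 0.14, adjusted p = 7.53e-12). Only 1.28% of all genes rose as much or more.

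Ctla4 was at 36.8, 22.4 and 27.4 FPKM in unstimulated CTL and at 215, 179 and 159 FPKM after retriggering. Every retriggered sample was above every unstimulated one, a 6.38-fold rise (log2 fold change 2.69, SE 0.17, adjusted p = 2.35e-09). In all 4 groups replicate 1 had the most Ctla4 and the most Pdcd1 mRNA of the 3 samples. Because regulatory T cells carry much CTLA-4, markers of CD4 T cells were read beside it. Cd4 was at 0.773 ± 0.293 FPKM in unstimulated CTL and 2.69 ± 0.168 after retriggering, at 2.94 ± 0.875 with PI3Kdi and at 0.45 ± 0.193 with MEKi. It thus rose with TCR as Ctla4 did (3.47-fold, adjusted p = 9.53e-05). Between TCR and TCR+PI3Kdi it did not change detectably (adjusted p = 0.866), and between TCR and TCR+MEKi it moved opposite to Ctla4. Zbtb7b, the other measured CD4 T cell marker, moved with Ctla4 there, from 5.29 ± 0.287 FPKM with TCR to 9.95 ± 0.888 with MEKi (adjusted p = 6.73e-05), but was at 7.37 ± 0.949 in unstimulated CTL and 3.92 ± 0.636 with PI3Kdi. The part of such cells in the level of Ctla4 was not tested.

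Cd28 rose less, from 25.7, 23.5 and 26.2 FPKM to 51.9, 58.9 and 56.8 FPKM. The groups did not overlap, and the difference was 2.22-fold (log2 fold change 1.15, SE 0.07, adjusted p = 1.52e-09). Icos was at 56.8, 46.5 and 48.2 FPKM before and at 50.4, 50.4 and 45.7 FPKM after retriggering. Its groups overlapped, and the log2 fold change of -0.05 had a 95% interval of -0.27 to 0.17 (adjusted p = 0.707). When each sample was rescaled to a common sum of FPKM, the median of all genes moved to -0.41 and higher calls made up 22.1% of called genes in place of 44.4%. On that scale Cd28 fell short of 2-fold with a log2 fold change of 0.74, and Icos was lower with -0.46 (adjusted p = 0.00105), but relative to the median gene the values were 1.15 and -0.05.

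The PI3K p110δ inhibitor was then compared with TCR alone, to ask which receptor mRNAs differ when it is added with the peptide. Both groups held interleukin 2, and no group had the inhibitor without peptide. PI3K activity driven by antigen and by interleukin 2 therefore cannot be told apart here. PI3Kdi raised Cd28, Icos and Ctla4 by close to 2-fold and left Pdcd1 without a detectable change. At an adjusted p under 0.05, 3 of 4 members were higher, where 12.7% of all genes were. None of the 4 passed the 2-fold threshold in addition, which 1.88% of all genes did in either direction.

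Cd28 reached 109, 112 and 111 FPKM with PI3Kdi, against 51.9, 58.9 and 56.8 FPKM with TCR alone. The 3 inhibitor samples lay within a few percent of each other and well above the TCR samples, 1.98-fold on average (log2 fold change 0.99, 95% interval 0.84 to 1.14, adjusted p = 3.71e-07). Icos reached 92.6, 100 and 86.8 FPKM, which no sample without an inhibitor approached. That was 1.91-fold above TCR alone (log2 fold change 0.93, SE 0.10, adjusted p = 2.13e-05). Ctla4 reached 418, 322 and 306 FPKM, 1.89-fold above TCR alone (log2 fold change 0.92, SE 0.17, adjusted p = 0.00125). Its lowest inhibitor sample was above its highest TCR sample, and in same-numbered samples the rise was 1.94-fold, 1.8-fold and 1.93-fold.

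Changes of this size were rare in the comparison. Only 0.553%, 0.753% and 0.798% of all genes rose as much as Cd28, Icos and Ctla4 did. The members sat so close to the 2-fold threshold that the count past it depended on the scaling: all 3 passed it with a common FPKM sum (log2 fold changes of 1.17 for Cd28, 1.11 for Icos and 1.10 for Ctla4) and after quantile normalisation (1.08, 1.02 and 1.03). With a common FPKM sum, 119 of all 11022 genes were called higher past 2-fold in place of 55, and the median gene stood at 0.19. Relative to that median the 3 values were 0.98, 0.92 and 0.91. After quantile normalisation 56 genes were called higher past 2-fold. The count of members also depended on single libraries, since 1 member passed 2-fold without TCR replicate 1 (Ctla4, 1.04), without TCR replicate 2 (Cd28, 1.03) or without PI3Kdi replicate 3 (Ctla4, 1.01).

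Pdcd1 was at 204, 183 and 186 FPKM with PI3Kdi and at 227, 205 and 199 FPKM with TCR alone. In same-numbered samples the PI3Kdi level was 0.899, 0.896 and 0.932 times the TCR level. The ranges overlapped, and the log2 fold change was -0.14 with a 95% interval of -0.43 to 0.15 (adjusted p = 0.491). Its sign turned to 0.04 with a common FPKM sum and to 0.02 after quantile normalisation. Relative to the median gene, the value with a common FPKM sum was -0.15. The interval leaves room for a modest change but not for the near doubling seen in the other members. The genes that rose are the 3 printed above with a PI3K-binding motif, and they are also the 3 that lie side by side on chromosome 1. With 4 genes, these features cannot be told apart and neither was tested.

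The MEK inhibitor was compared with the same TCR samples, so the inhibitor comparisons are not independent of each other. With MEKi, Icos and Ctla4 were higher than with TCR alone, Cd28 was slightly lower and Pdcd1 did not change detectably. At an adjusted p under 0.05, 2 members were higher, where 18.9% of all genes were, and 1 member was lower, where 18.2% were. None passed the 2-fold threshold, which 3.49% of all genes did in either direction.

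Icos was at 102, 74.1 and 83.2 FPKM with MEKi, each above all unstimulated and TCR samples. The difference from TCR was 1.77-fold (log2 fold change 0.81, SE 0.10, adjusted p = 3.06e-05). Ctla4 was at 303, 223 and 234 FPKM, 1.38-fold above TCR (log2 fold change 0.46, SE 0.17, adjusted p = 0.0467). The samples of the groups did not overlap. In same-numbered samples, read as paired in this comparison, the rise was 1.41-fold, 1.25-fold and 1.48-fold, and with replicate number as a block the adjusted p was 0.000461. Without the block the call was narrow: the adjusted p was 0.0962 with no intensity trend, and it rose past 0.05 in turn without unstimulated replicate 3 (0.0564), TCR replicate 2 (0.101), TCR replicate 3 (0.162), PI3Kdi replicate 2 (0.0528), MEKi replicate 1 (0.192) or MEKi replicate 3 (0.066), with log2 fold changes of 0.32 to 0.51.

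Cd28 was at 51.7, 43.1 and 47.4 FPKM with MEKi, 0.848 times its level with TCR alone (log2 fold change -0.24, SE 0.07, adjusted p = 0.0151). All 3 MEKi samples lay below the lowest TCR sample, but replicate 1 did so by a small margin (51.7 against 51.9 FPKM). The adjusted p was 0.0621 without TCR replicate 2, 0.0796 without MEKi replicate 2 and 0.109 after quantile normalisation, and the log2 fold change was 0.02 with a common FPKM sum, on which scale the median gene stood at 0.26. Pdcd1 was at 213, 203 and 199 FPKM with MEKi, within the range of its TCR samples or just below it. The log2 fold change was -0.04 with a 95% interval of -0.33 to 0.25 (adjusted p = 0.863). Without TCR replicate 1 it was 0.02, and it was 0.23 with a common FPKM sum and 0.11 after quantile normalisation.

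**Figure D2:**
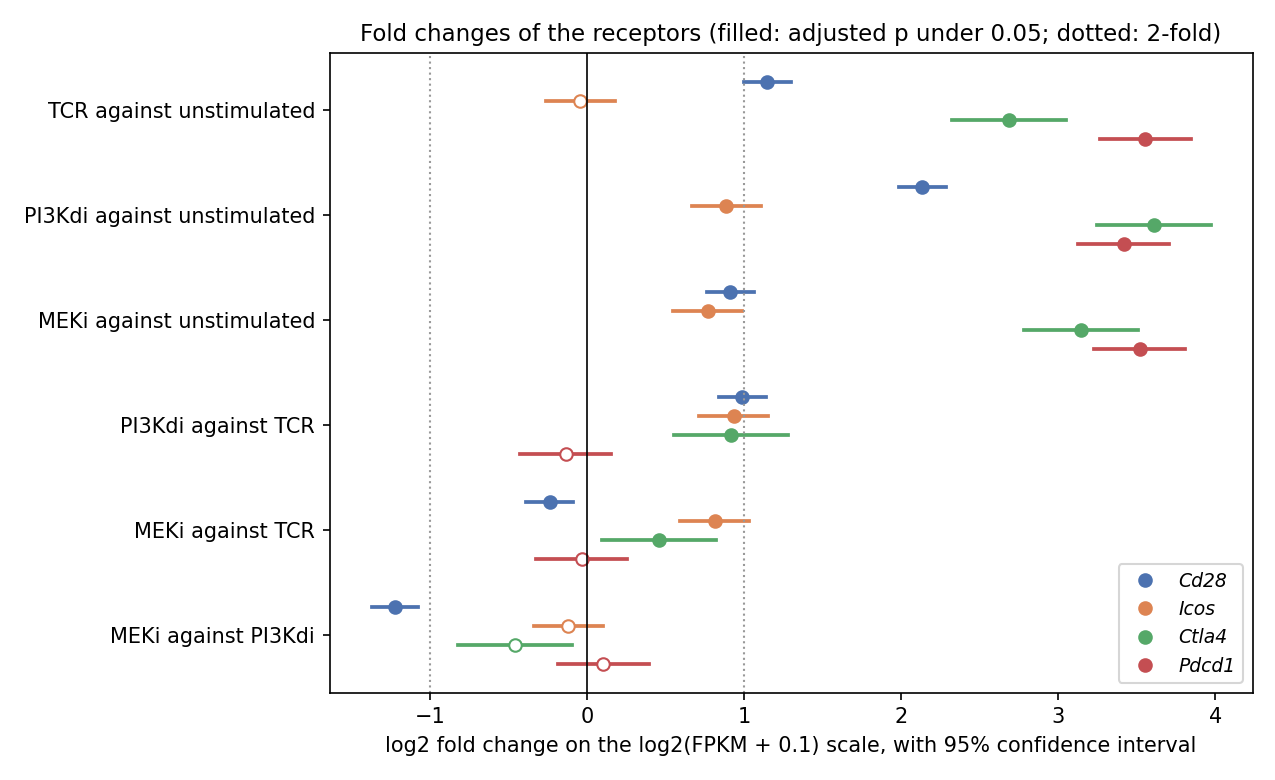
Log2 fold change (x axis, log2(FPKM + 0.1) scale) of each receptor in 6 comparisons (rows), with 95% confidence intervals; filled points have an adjusted p under 0.05 and dotted lines mark 2-fold. Cd28 is the member whose response to the inhibitors differs most, 0.99 with PI3Kdi and -0.24 with MEKi.

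The inhibitors were also set directly against each other. Cd28 mRNA differed most, at 47.4 ± 4.31 FPKM with MEKi and 111 ± 1.56 with PI3Kdi (log2 fold change -1.23, SE 0.07, adjusted p = 1.96e-08). It was the 1 member called past 2-fold, in the direction in which 1.71% of all genes were called, and the call held under each of the 21 alternatives tried. At an adjusted p under 0.05 alone the count of lower members was also 1, against 14.4% of all genes. Ctla4 was lower with MEKi than with PI3Kdi by a log2 fold change of -0.46 (adjusted p = 0.0553). Same-numbered samples deviated together in this comparison, and with replicate number as a block the value for Ctla4 passed the threshold (adjusted p = 0.000523), so that 2 members were then lower. In same-numbered samples the MEKi level was 0.725, 0.691 and 0.767 times the PI3Kdi level. Icos had a log2 fold change of -0.12 (95% interval -0.34 to 0.10, adjusted p = 0.409) and Pdcd1 of 0.10 (95% interval -0.19 to 0.39, adjusted p = 0.609), and the samples overlapped in both cases. By replicate number, the MEKi level of Pdcd1 was 1.04, 1.11 and 1.07 times its PI3Kdi level. For Icos these values were 1.1, 0.738 and 0.959. For Icos and Pdcd1 a difference between the inhibitors was not detectable in the fit with 3 samples per group.

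Each inhibitor group was finally compared with unstimulated CTL. These differences join the effect of the peptide with any effect of the inhibitor alone. Without a group given an inhibitor and no peptide, these cannot be told apart. With PI3Kdi all 4 members were higher at an adjusted p under 0.05, where 31.7% of all genes were, and Cd28, Ctla4 and Pdcd1 were higher by more than 2-fold, where 7.16% were. Ctla4 stood 12.1-fold above unstimulated CTL (log2 fold change 3.61, SE 0.17), Pdcd1 10.5-fold (3.42, SE 0.14), Cd28 4.4-fold (2.13, SE 0.07) and Icos 1.85-fold (0.89, SE 0.10). Ctla4 and Pdcd1 were among the 1.03% of genes with the largest rise in this comparison. With MEKi all 4 were again higher at an adjusted p under 0.05, where 28.9% of all genes were, while Ctla4 and Pdcd1 exceeded 2-fold, where 6.95% did. Pdcd1 stood 11.2-fold above unstimulated CTL, Ctla4 8.78-fold, Cd28 1.89-fold and Icos 1.71-fold. Icos was thus above its unstimulated level in both inhibitor groups and not detectably so with peptide alone.

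The balance of inhibitory to costimulatory receptor mRNA was described by the ratio of FPKM values within each sample, without a test. The ratio of Ctla4 to Cd28 was 1.43, 0.951 and 1.05 in the unstimulated samples and 4.15, 3.03 and 2.79 after retriggering. With PI3Kdi, where both mRNAs rose, the ratio was 3.84, 2.89 and 2.74, inside the range of TCR alone or just below it. With MEKi it was 5.86, 5.17 and 4.94, above every other sample. The ratio of Pdcd1 to Cd28 was 0.727 ± 0.203 in unstimulated CTL and 3.78 ± 0.508 after retriggering. It was lower with PI3Kdi, at 1.73 ± 0.125, and 4.34 ± 0.332 with MEKi. The ratio of Icos to Cd28 divided the samples in another way, with 2.01 ± 0.187 in unstimulated CTL and 1.81 ± 0.137 with MEKi but 0.877 ± 0.0849 with TCR alone and 0.842 ± 0.0609 with PI3Kdi.

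**Figure D3:**
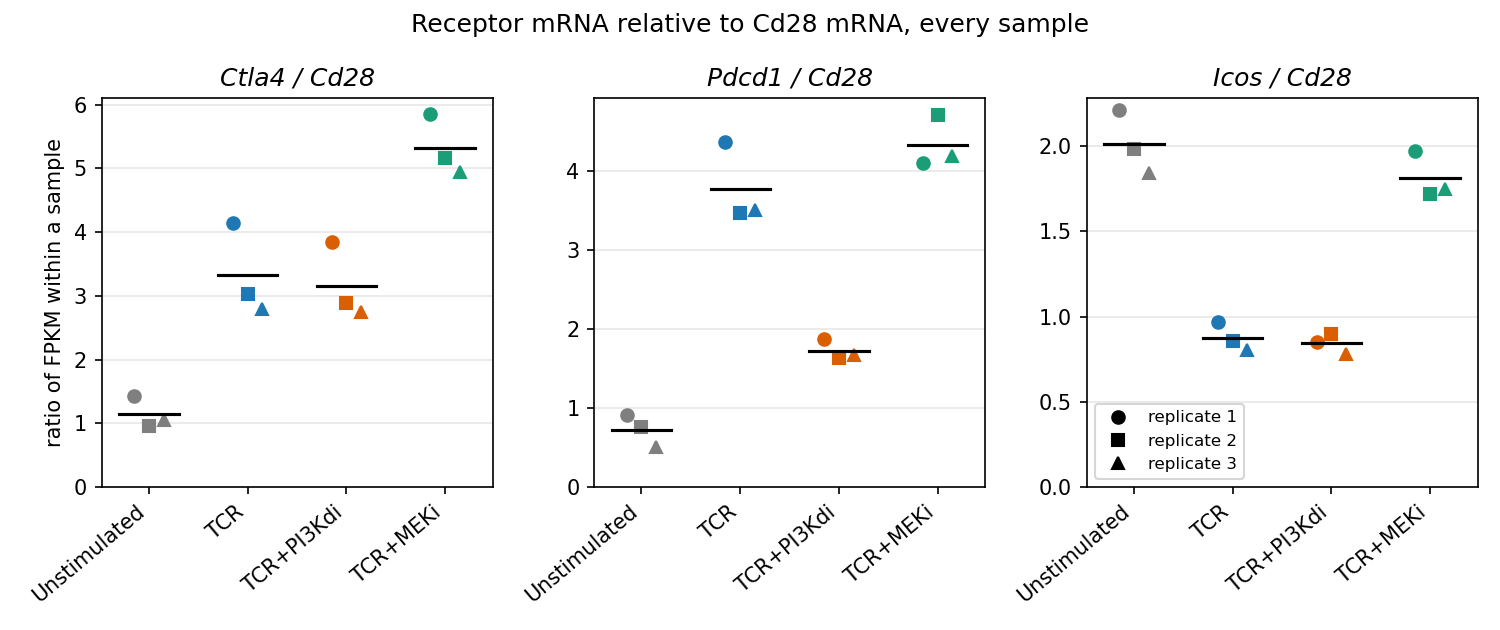
FPKM of Ctla4, Pdcd1 and Icos divided by FPKM of Cd28 in the same sample (y axis, linear from 0), by group; symbols mark replicates and lines mark means. The ratio of Ctla4 to Cd28 is highest in the 3 samples with MEKi (4.94 to 5.86), and that of Pdcd1 to Cd28 is lower with PI3Kdi (1.64 to 1.87) than in the other stimulated samples.

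The promoters of Ctla4 and Pdcd1 are shown because these are the members with the largest rise after retriggering. Cd28 and Icos have no entry in the RefSeq table used. Each run is the 250 bases before the RefSeq start (GRCm38.p6), written in the direction of transcription.
Ctla4, chr1:60908775-60909024, plus strand: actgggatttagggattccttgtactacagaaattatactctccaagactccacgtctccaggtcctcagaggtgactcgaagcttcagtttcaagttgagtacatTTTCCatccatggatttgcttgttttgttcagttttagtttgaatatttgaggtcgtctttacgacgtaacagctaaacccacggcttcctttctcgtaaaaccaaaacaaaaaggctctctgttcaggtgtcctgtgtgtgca
Pdcd1, chr1:94052554-94052803, minus strand: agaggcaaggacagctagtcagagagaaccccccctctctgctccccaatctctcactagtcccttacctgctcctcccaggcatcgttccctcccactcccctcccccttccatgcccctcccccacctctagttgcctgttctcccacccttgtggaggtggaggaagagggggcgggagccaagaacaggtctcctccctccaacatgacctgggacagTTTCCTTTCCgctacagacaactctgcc
Capitals mark TTTCC, which is the core GGAAA of the site bound by NFAT, the calcium-dependent factor of TCR signalling, read on the opposite strand. Both strands were searched. Ctla4 holds 1 such match, 144 to 140 bases before the start, and Pdcd1 holds 2 adjoining matches, at 28 to 24 and 23 to 19 bases. A core this short occurs in 55.6% of the 32851 mouse promoter windows of this length. TGANTCA, the site of the ERK-responsive factor AP-1, occurs in 6.7% of windows, and GTAAACA, the site of FOXO factors that PI3K signalling keeps out of the nucleus, in 3.2%. Neither is in either window. The windows also differ in base composition, with 42.4% G and C in Ctla4 and 60.4% in Pdcd1.

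The genes nearest to the receptors on chromosome 1 were measured for comparison. Raph1, which encodes a regulator of the actin cytoskeleton, lies 179.3 kb before the RefSeq start of Cd28. It rose 2.52-fold with TCR (log2 fold change 1.31, adjusted p = 7.22e-08). Its level was 12.2 ± 1.4 FPKM with TCR alone and 14.9 ± 2.25 with PI3Kdi (adjusted p = 0.0808). Ino80d, the next measured gene after Icos at a distance of 2047.5 kb, had 4.29 ± 0.474 FPKM with TCR, 4.99 ± 0.696 with PI3Kdi (adjusted p = 0.209) and 5.21 ± 0.171 with MEKi (adjusted p = 0.0763). None of the 3 nearest measured genes on either side of the Cd28, Ctla4 and Icos block passed the test with PI3Kdi, with adjusted p from 0.0808 to 0.844. Beside Pdcd1, D2hgdh, a mitochondrial dehydrogenase gene 184.4 kb away, fell to 0.439 of its unstimulated level with TCR (log2 fold change -1.15, adjusted p = 1.61e-05), opposite to Pdcd1.

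Genes with the most similar pattern over the 12 samples were ranked by Pearson's r of log2(FPKM + 0.1), as a description without a test, since 4 group means dominate such values. Closest to Cd28 were Zfp52 (r = 0.982), Zfp36 (0.975) and Cd53 (0.973). Closest to Icos were D16Ertd472e (0.947), Dgat1 (0.946) and Camsap2 (0.945), all with more mRNA in both inhibitor groups than in the other groups. Closest to Ctla4 were Lhfpl2 (0.985), Cables1 (0.983) and Prdm1 (0.98), the last encoding the effector regulator Blimp-1. Closest to Pdcd1 were Srgap3 (0.996), Faah (0.994) and Cd27 (0.992), a costimulatory receptor gene of the TNF receptor family with 14.5 FPKM in unstimulated CTL, 114 with TCR, 114 with PI3Kdi and 96 with MEKi. Between members, r was highest for Ctla4 and Pdcd1 (0.957) and lowest for Icos and Pdcd1 (0.511).

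The ligands and counter-receptors of the family were measured in the same CTL. The lists here and below were chosen with earlier results of these data known, so their counts are a description and not an independent test. For all lists, the background with TCR was 8.87% of genes higher and 11.1% lower past 2-fold, and 33.6% and 34.9% at an adjusted p under 0.05 alone. With PI3Kdi these shares were 0.499% and 1.38% past 2-fold and 12.7% and 12.8% at an adjusted p alone, and with MEKi 0.980% and 2.51%, and 18.9% and 18.2%. Of 8 ligand and counter-receptor genes, 4 were called higher and 1 lower past 2-fold with TCR, with a median log2 fold change of 0.74 where that of all genes was -0.01. Pdcd1lg2 and Cd274, which encode the PD-1 ligands PD-L2 and PD-L1, rose 3.22-fold (8.64 ± 0.0346 to 27.8 ± 3.01 FPKM) and 2.17-fold (15.9 ± 0.3 to 34.6 ± 1.3 FPKM). MEKi lowered both, to 15 ± 1.54 and 24 ± 0.902 FPKM (adjusted p = 2.49e-06 and 9.67e-06). PI3Kdi lowered Pdcd1lg2 slightly (log2 fold change -0.26, adjusted p = 0.0403), and Cd274 was at 33.6 ± 1.81 FPKM with it (adjusted p = 0.647). Both ligands of PD-1 were thus lower with MEKi, while PD-1 mRNA itself showed no detectable change.

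Tnfsf14 and Cd160, whose products LIGHT and CD160 share the receptor HVEM with BTLA, had the largest changes of the list. Tnfsf14 rose from 3.25 ± 0.216 to 249 ± 3.45 FPKM and was at 119 ± 5.29 with PI3Kdi and 128 ± 7.92 with MEKi. Cd160 rose from 23.5 ± 2.19 to 187 ± 3.55 FPKM and was at 99.3 ± 3.91 with PI3Kdi and 48.4 ± 5.81 with MEKi. Every one of these inhibitor effects had an adjusted p of 2.31e-06 or less, and both genes moved opposite to Ctla4 and Icos under both inhibitors. Icosl, the ligand of ICOS, fell from 6.06 ± 0.915 to 2.6 ± 0.238 FPKM with TCR (adjusted p = 1.38e-06). The CD28 and CTLA-4 ligands were scarce, with Cd86 at 1.16 FPKM or less in every sample and Cd80 at 3.09 ± 0.304 FPKM with TCR and 5.5 ± 1.07 with MEKi (adjusted p = 0.00135).

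Of 12 kinases and adaptors that bind the tails or act just below them, 4 were higher and 6 lower with TCR at an adjusted p under 0.05, with a median log2 fold change of -0.31, and 2 of the latter passed 2-fold. These were Grap2, which encodes the CD28-binding adaptor GADS (86.3 ± 1.62 to 30.7 ± 2.66 FPKM), and Prkcq, which encodes PKCθ (70.8 ± 1.23 to 31.7 ± 1.3 FPKM). With PI3Kdi 5 were higher and 2 lower, and none passed 2-fold. Pik3cd, which encodes the inhibited kinase p110δ, fell from 221 ± 10.8 to 119 ± 4.52 FPKM with TCR and was at 210 ± 12.4 with PI3Kdi (log2 fold change 0.82, adjusted p = 3.07e-07) but at 127 ± 2.68 with MEKi. Pik3r1, which encodes the p85α subunit that binds the motifs printed above, was at 15.7 ± 0.358, 10 ± 0.641, 14.9 ± 0.785 and 11.4 ± 0.75 FPKM in the same order of groups. With MEKi 4 were higher and 2 lower, and Carmil2, an actin adaptor needed for CD28 costimulation that the table lists under its older name Rltpr, fell past 2-fold from 13.7 ± 1.87 to 6.61 ± 0.545 FPKM (adjusted p = 2.36e-05).

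The phosphatases of the inhibitory tails were 4 genes, of which 2 were higher with TCR at an adjusted p under 0.05 and none past 2-fold (median log2 fold change 0.22). Ptpn6, which encodes SHP-1, was at 30.7 ± 2.43 FPKM with TCR, 20 ± 1.35 with PI3Kdi (adjusted p = 3.24e-05) and 70 ± 4.88 with MEKi (adjusted p = 2.23e-08), a 3.5-fold span between the inhibitors. Ptpn11, which encodes SHP-2, the main partner of PD-1, lay between 20.38 and 25.13 FPKM in all 12 samples. Of 7 genes for trafficking of CTLA-4, 6 were in the table and none passed 2-fold in any comparison. With TCR 1 was higher and 3 were lower at an adjusted p under 0.05, and the median log2 fold change was -0.32. Lrba, whose product protects CTLA-4 from lysosomal degradation, was among the lower ones, at 5.67 ± 0.215 FPKM before and 3.63 ± 0.586 after retriggering (adjusted p = 0.000943).

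Of 5 genes for mRNA decay factors, several of which are known to act on transcripts of this family in T cells, all 5 were higher with TCR at an adjusted p under 0.05 and 4 passed 2-fold (median log2 fold change 1.24). The largest were Zfp36l1 (10.6 ± 0.0493 to 55.9 ± 4.15 FPKM) and Zc3h12a, which encodes Regnase-1, an RNase that cleaves Icos mRNA (6.29 ± 0.345 to 28.1 ± 1.01 FPKM). Rc3h1, which encodes Roquin-1, another repressor of Icos mRNA, rose from 5.22 ± 0.468 to 11 ± 1.1 FPKM and stood at 11.5 ± 0.937 with PI3Kdi and 10.5 ± 0.572 with MEKi. Zc3h12a was lower with PI3Kdi (13.6 ± 1.01 FPKM, adjusted p = 1.02e-06) and at 25.1 ± 2.57 with MEKi (adjusted p = 0.134), whereas Icos was higher in both groups. The part of either gene in the level of Icos was not tested.

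Among 13 listed transcription factors, 12 were in the table. With TCR 8 were higher and 1 lower at an adjusted p under 0.05, and Nr4a1, Irf4, Fos, Tbx21 and Prdm1 were higher past 2-fold (median log2 fold change of the list 0.92). Nr4a1 had the largest rise of the list, from 0.753 ± 0.0321 to 169 ± 27.6 FPKM, and was at 96.5 ± 15.5 with PI3Kdi and 65.8 ± 1.06 with MEKi. Nfatc2, which encodes NFAT1, was lower (30.6 ± 0.925 to 10.8 ± 1.38 FPKM), whereas Nfatc1 was higher (21 ± 1.86 to 40 ± 4.63 FPKM). Tbx21, which encodes T-bet, a known repressor of Pdcd1 in CD8 T cells, rose from 13.6 ± 1.2 to 53 ± 6.73 FPKM and was lower in both inhibitor groups, at 28.8 ± 4.42 and 24.2 ± 0.381. Pdcd1 showed no detectable change between these same groups. Foxo1 mRNA was at 15.1 ± 0.69 FPKM with TCR and 16.6 ± 0.732 with PI3Kdi (adjusted p = 0.202). Klf2, a FOXO1 target, was at 1.1 ± 0.269 FPKM with TCR. It was at 1.79 ± 0.578 with PI3Kdi (adjusted p = 0.0344, samples overlapping) and 4.81 ± 0.356 with MEKi (adjusted p = 3.08e-06). Tox, a regulator of exhausted CD8 T cells with high PD-1, was at 0.56 FPKM or less in every sample.

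**Figure D4:**
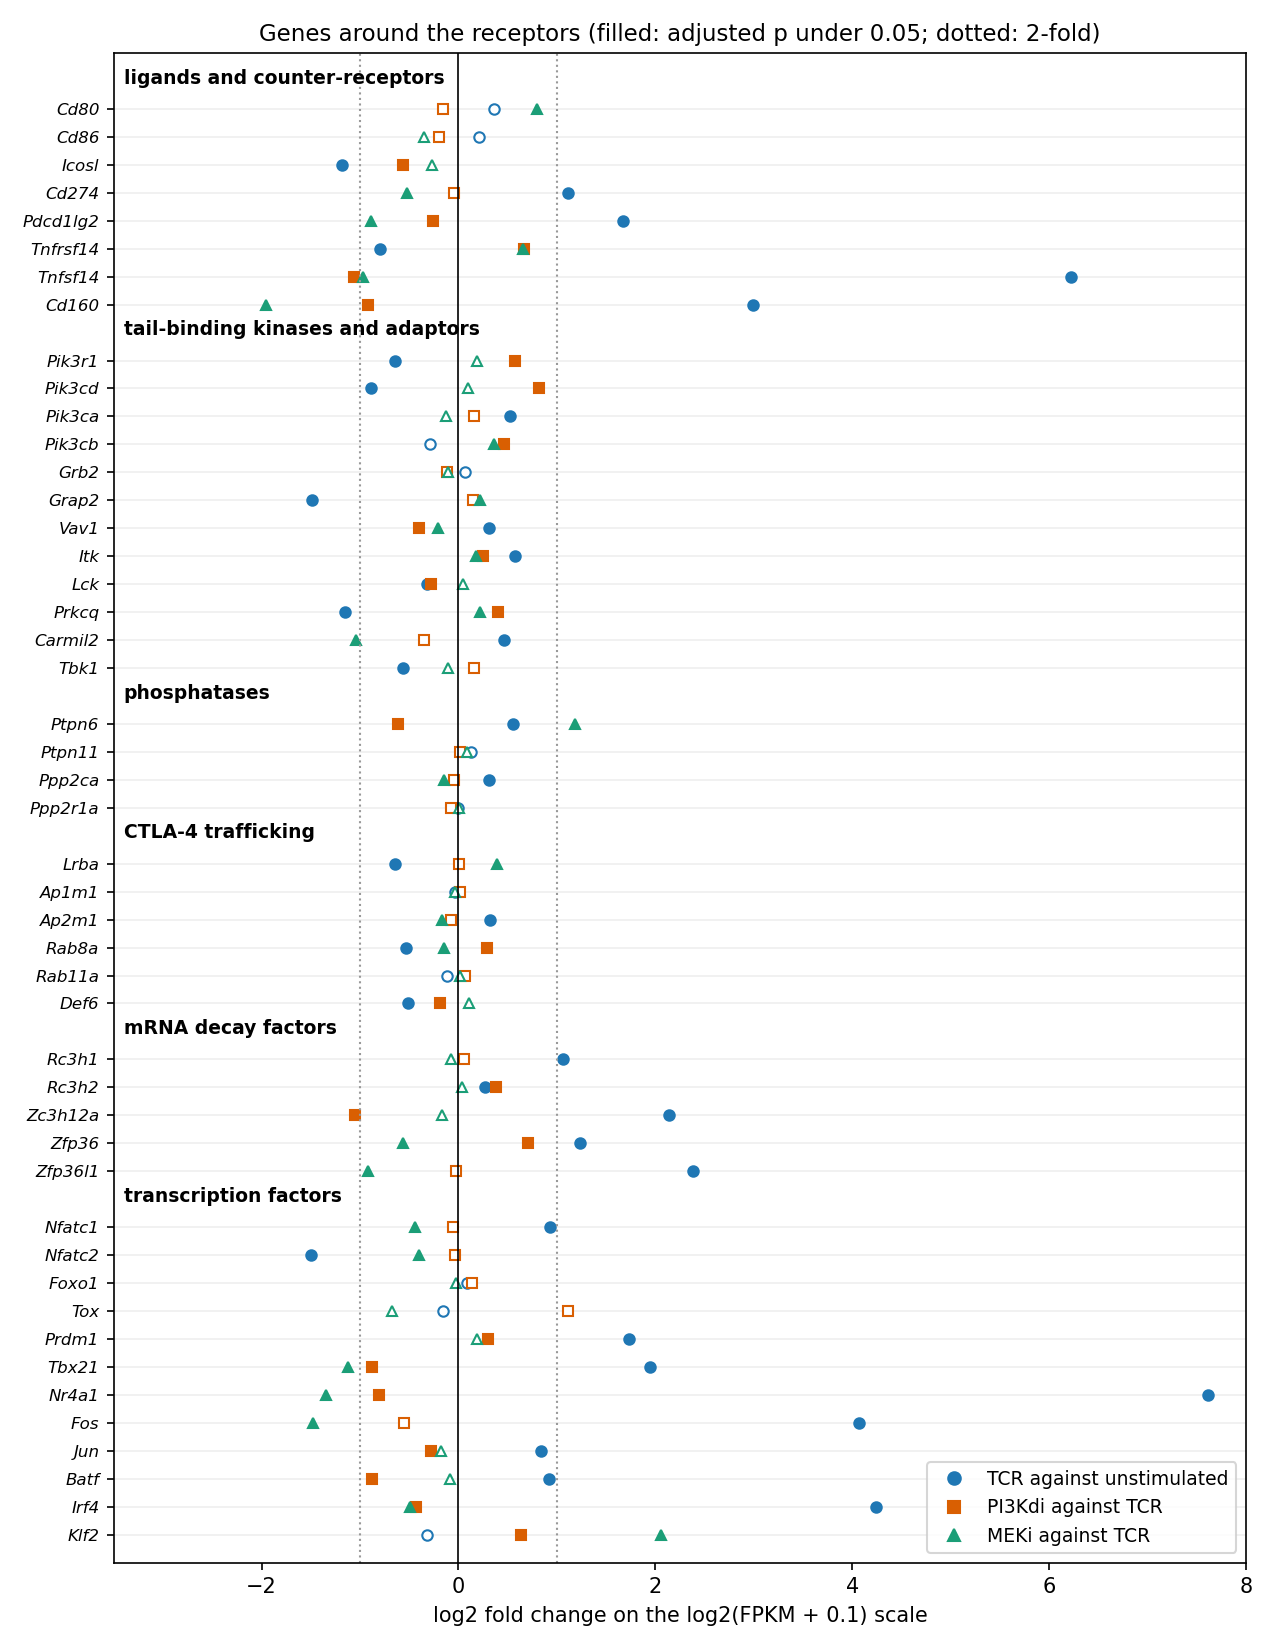
Log2 fold change (x axis, log2(FPKM + 0.1) scale) of the listed genes around the receptors, one row per gene, for TCR against unstimulated and for each inhibitor against TCR; filled symbols have an adjusted p under 0.05 and dotted lines mark 2-fold. Nr4a1 and Tnfsf14 have the largest rise with TCR (7.62 and 6.22), and of the genes plotted, which leave out the cell type markers, Cd160 has the largest fall with MEKi (-1.96).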

How the data were processed

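CTL mRNA libraries (TruSeq Stranded) were sequenced paired-end. Per the labels and methods, the authors aligned reads to mm10 with STAR 2.4.2a, counted them per RefSeq gene with Subread 1.5.0, removed genes with low counts, scaled by TMM and deposited FPKM computed in edgeR from summed exon length. Whether counting used the strand is not given in the sources used here. According to the methods, 3 mice gave the 3 biological replicates, but the labels do not state which samples of a group came from which mouse.

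All 11022 genes were fitted on log2(FPKM + 0.1) with limma 3.58.1 in R 4.3.3, with 1 mean per group, all 12 samples and an intensity trend, and p-values were adjusted by Benjamini-Hochberg over all genes. Fold changes understate those of low genes. Members, gene lists and tests were chosen with earlier results of these data known. Genes named were the members, listed genes, the nearest 3 measured genes on each side and the 3 most alike in pattern, of genes with a group mean of at least 1 FPKM and at least 0.5 of the SD of the member. Names were matched to GENCODE M21 and RefSeq (10337 by Entrez gene, 635 by synonym, 2 by symbol, 48 not matched). Depth was estimated from low values, of which 57.0% to 73.7% lay within 0.15 of a whole read, so reads were not recovered. Deviations of same-numbered samples from their group means correlated at 0.239 to 0.451 between TCR and PI3Kdi and 0.122 to 0.182 between TCR and MEKi. The values were 0.137 to 0.149 between the inhibitors and 0.117 to 0.147 between MEKi and unstimulated. These comparisons were read as paired. If equal numbers share a mouse, the pairing holds for all groups, also where the correlation was lower. The main fit did not use replicate number, which entered only as a block in an alternative fit. The fit was tested on simulated data.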

Additional observations from a re-analysis of the deposited data

How the results depend on the processing

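The 21 alternatives were pseudocounts of 1 and 0.01, a mean of at least 1 FPKM, a common FPKM sum, quantile normalisation, replicate number as a block, the compared groups alone, no intensity trend, leaving out each of the 12 samples, and, added after the data had been seen, voom on approximate reads of the 10709 genes with an exon length. Called members numbered 3 with PI3Kdi against unstimulated, 2 with MEKi against unstimulated and 1 with MEKi against PI3Kdi under all of them, and 3 with TCR against unstimulated except for 2 with a common FPKM sum. PI3Kdi against TCR gave 0, but 3 with a common FPKM sum or quantile normalisation and 0 to 1 when a sample was left out. MEKi against TCR gave 0, but 1 (Icos) with a common FPKM sum. At an adjusted p alone, MEKi against TCR gave 3 members, 2 with a common FPKM sum, quantile normalisation or no intensity trend, and 1 to 3 when a sample was left out (1 without TCR replicate 2). Cd28 was lost with both scalings (adjusted p = 0.827 and 0.109) and Ctla4 with no intensity trend (adjusted p = 0.0962). MEKi against PI3Kdi gave 1 member, and 2 with the replicate block, the compared groups alone or voom, and 1 to 2 when a sample was left out; the added member was Ctla4 each time, at an adjusted p of 0.000523 with the replicate block, 0.0192 with the compared groups alone and 0.0168 with voom. The replicate block changed no other call. Same-numbered samples correlated at 0.004 to 0.153 between unstimulated and TCR and at -0.062 to 0.114 between unstimulated and PI3Kdi, although each of the 12 samples correlated best with its own number. Signs reversed in values near 0: Icos with TCR (-0.1 to 0.04 over samples left out, 0.04 without unstimulated replicate 1 and 0 without TCR replicate 3), Pdcd1 with PI3Kdi (0.04 with a common FPKM sum, 0.02 after quantile normalisation), Pdcd1 with MEKi (0.23 and 0.11 with the same scalings, -0.07 to 0.02 over samples left out, 0.02 without TCR replicate 1) and Cd28 with MEKi (0.02 with a common FPKM sum). With a common FPKM sum the median gene moved to 0.19 for PI3Kdi and 0.26 for MEKi against TCR. The cause of the other changes was not tested. Depth limits the receptors little, since each had at least 342 approximate reads in every sample.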
